A study of Mus musculus with 20 samples.

Results

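The endogenous opioid system of the mouse anterodorsal bed nucleus of the stria terminalis was described through 7 genes, taken by name from a count table of 12988 genes: the peptide precursors Penk, Pdyn and Pnoc, and the receptors Oprk1, Oprm1, Oprd1 and Oprl1. All 7 were in the table and none was removed by the filter on low counts. The study compared control mice with mice given chronic variable mild stress, a 6-week schedule of changing minor stressors. The mice entered it at 7 to 9 weeks of age and were killed under ketamine, the stressed ones 1 hour after a last stressor of wet bedding. The 4 groups were female control, female stressed, male control and male stressed, with 15 mice in each. RNA came from pools of 3 mice, 5 pools and thus 5 libraries in each group. The spread between libraries is therefore that between pools, not between single mice. The strain is not given in the sources used here.

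Opioid peptides are cut from larger precursor proteins at pairs of basic residues. Penk encodes proenkephalin, the source of the enkephalins, which act mainly at the delta receptor (Oprd1) and the mu receptor (Oprm1). Pdyn encodes prodynorphin, whose dynorphins act at the kappa receptor (Oprk1), and Pnoc encodes the precursor of nociceptin, the ligand of Oprl1. The receptors couple to inhibitory G proteins, which open inwardly rectifying potassium channels and lower the activity of calcium channels and adenylyl cyclase. Neurons of the bed nucleus and of the neighbouring striatum both express opioid genes, and in the bed nucleus the dynorphin and kappa receptor pair is known for its part in stress responses.

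The precursors differ in which peptide they carry and in how many copies, so a count of a precursor's mRNA is not a count of one peptide. In the coding sequence of the principal transcripts (GENCODE M21, build GRCm38), Penk held 6 copies of the Met-enkephalin codons and 1 of Leu-enkephalin, Pdyn held 3 copies of Leu-enkephalin, each the start of a longer peptide of the dynorphin family, and Pnoc held 1 nociceptin start. The sequences below show these copies 5′ to 3′, with the peptide's codons in capitals and a pair of codons on either side in lower case.
Penk, Met-enkephalin, codons 100 to 104: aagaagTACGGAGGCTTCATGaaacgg
Penk, Met-enkephalin, codons 107 to 111: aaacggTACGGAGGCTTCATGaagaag
Penk, Met-enkephalin, codons 136 to 140: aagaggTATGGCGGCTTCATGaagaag
Penk, Met-enkephalin, codons 187 to 191: aagaggTATGGGGGCTTCATGagaagc
Penk, Met-enkephalin, codons 211 to 215: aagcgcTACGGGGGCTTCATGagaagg
Penk, Leu-enkephalin, codons 231 to 235: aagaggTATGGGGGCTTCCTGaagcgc
Penk, Met-enkephalin, codons 262 to 266: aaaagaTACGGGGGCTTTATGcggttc
Pdyn, Leu-enkephalin, codons 166 to 170: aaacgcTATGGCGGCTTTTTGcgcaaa
Pdyn, Leu-enkephalin, codons 202 to 206: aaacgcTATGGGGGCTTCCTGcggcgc
Pdyn, Leu-enkephalin, codons 221 to 225: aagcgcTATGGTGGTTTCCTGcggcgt
Pnoc, nociceptin start, codons 141 to 144: aaaaggTTTGGGGGCTTCaccggg
Every copy was preceded by a pair of basic codons. Such a pair also followed each copy except the Penk copies at codons 187 to 191 and 262 to 266 and the nociceptin start, where the peptide runs on.

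The genes lie on build GRCm38 (mm10), the build named in the submitters' processing notes. Penk is on chromosome 4 at 4133531-4138819 and Oprd1 on the same chromosome at 132110726-132144486, both on the minus strand. Pdyn is on chromosome 2 at 129686565-129699844 (minus strand) and Oprl1 on chromosome 2 at 181715016-181720985 (plus strand). Pnoc is on chromosome 14 at 65400673-65425472 (minus strand), Oprk1 on chromosome 1 at 5588466-5606131 (plus strand) and Oprm1 on chromosome 10 at 6758506-7038198 (plus strand). Penk shares 14.3% of its exon bases with the antisense gene A830012C17Rik, and Oprm1 shares 1.19% with the antisense gene Ipcef1. The libraries were stranded, but the strand setting of the counting is not given in the sources used here. How reads of these stretches were assigned or dropped is therefore not known.

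Library totals ran from 2.71 to 33.6 M counts, with a median of 15.6 M (M stands for mega). Genes listed for bed nucleus and GABA neurons were present in every library. Gad2 was at 983 to 1248 CPM (counts scaled to a common library size), Slc32a1 at 265 to 342 CPM and Prkcd at 45.2 to 75.3 CPM. Whether these levels set the bed nucleus apart from neighbouring regions was not tested. A striatal score was computed as the mean log2 CPM of 14 genes of striatal projection neurons, such as Drd1, Drd2, Adora2a and Ppp1r1b, centred on 0; it holds none of the opioid genes. Bed nucleus neurons express several of these genes too, so the score is not a measured amount of striatal tissue. The 14 genes were chosen with earlier results of these data known, which limits the tests of the score below. Among males it averaged -0.420 ± 0.137 in controls and 0.174 ± 0.269 with stress, and among females 0.108 ± 0.341 in controls and 0.138 ± 0.427 with stress (SD, n = 5). Male controls ran from -0.542 to -0.186 and stressed males from -0.0137 to 0.580, without overlap. The summed level of the 14 genes ran from 3394 to 4288 CPM in control and from 4840 to 7306 CPM in stressed males, and from 3625 to 6451 CPM in control and from 3520 to 7294 CPM in stressed females, and none of the 14 was at 0 in any library. In exact two-sided permutation tests, adjusted over 4 comparisons, the score was higher in stressed than in control males by 0.594 (p = 0.00794, the smallest that 252 splits allow; adjusted p = 0.0317) and lower in male than in female controls by 0.527 (p = 0.0159, adjusted p = 0.0317). The sex difference passed in 3 of 10 tests that left out 1 library; without female control 1, 4 or 5, or male control 1, 3, 4 or 5, the adjusted p was 0.0635. By the same exact permutation test its stress difference in females was 0.0306 (p = 0.905) and its sex difference in stressed mice 0.0358 (p = 0.881). Tested singly by edgeR, all 14 striatal genes were higher in stressed than in control males. Of these, 14 had an unadjusted p under 0.05 and 0 passed after adjustment. All 14 were lower in male than in female controls, 13 at an unadjusted p under 0.05 and 0 after adjustment. Markers of other cells moved as well. The score of 12 bed nucleus and GABA neuron genes was 0.145 ± 0.077 in male controls and -0.068 ± 0.154 in stressed males (SD, n = 5), with summed levels of 2735 to 2889 and 2446 to 2956 CPM; 9 of the 12 were lower in stressed males, 5 of them at an unadjusted p under 0.05 and 0 after adjustment. Along the striatal score within groups, 10 of these 12, 5 of 8 thalamic, 2 of 3 cortical and 10 of 10 oligodendrocyte genes had negative slopes, of which 3, 5, 2 and 1 passed. Their median slopes were -0.18, -0.60, -0.73 and -0.27, against -0.014 over all genes. Not all other markers fell: 1 thalamic and 1 cortical gene passed upward. Of 5 cholinergic genes, 4 had positive slopes and 3 passed upward (median 0.57). Of 8 astrocyte genes, 3 passed downward and 1 upward. Of 4 choroid plexus genes 1 passed downward, and 0 microglia or endothelial genes passed. None of these genes was at 0 in any library, and their part in the results below was not tested. In bulk tissue, fewer cells of a type and less RNA per cell cannot be told apart.

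Per length of exon, the enkephalin and dynorphin precursors stood far above the opioid receptors. Penk was at 460 ± 101 CPM per kilobase, Pdyn at 47.2 ± 5.88, Oprl1 at 17.4 ± 2.08 and Pnoc at 12.2 ± 2.02 (SD, n = 20 libraries). Oprd1 at 2.69 ± 0.502 and Oprk1 at 2.52 ± 0.364 CPM per kilobase differed by less than their SDs, and Oprm1 followed at 1.60 ± 0.235. The nociceptin receptor had a higher mean level than the nociceptin precursor, unlike the enkephalin and dynorphin pairs. The order of the receptors depended on the length used: per kilobase of the principal transcript, Oprk1 was at 16.7, Oprm1 at 8.96 and Oprd1 at 2.69 CPM, since the union of exons of Oprk1 and Oprm1 is several times their principal transcript. The places of Penk, Pdyn and Oprl1 at the top were the same on both scales.

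Penk, the most abundant of the 7, was the member that differed most between the male groups. In male controls it was at 514, 612, 511, 607 and 619.9 CPM in libraries 1 to 5, and in stressed males at 750.2, 940.5, 954, 741 and 689.8 CPM. All 5 stressed male libraries lay above all 5 male controls, as they did for 3.13% of all genes. In female controls Penk was at 897, 694, 559, 787 and 929 CPM, and in stressed females at 789, 561, 947, 929 and 1005 CPM. The female groups overlapped over most of their range, each with a single low library, while male controls sat low as a group. The means were 573 ± 55.2 CPM in male controls, 773 ± 152 in female controls, 815 ± 123 in stressed males and 846 ± 178 in stressed females (SD, n = 5), and only the first stood apart from its neighbours by more than an SD.

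In edgeR's quasi-likelihood test, with Benjamini-Hochberg adjustment over all genes, Penk was 0.51 log2 units (SE 0.14) higher in stressed than in control males (adjusted p = 0.103), so it did not pass the 0.05 threshold. It passed in DESeq2 (0.51, adjusted p = 0.0289) and when only the male groups were fitted (0.51, adjusted p = 0.0218). Male controls were 0.43 log2 units (SE 0.14) below female controls (adjusted p = 0.143). That difference passed without female control 3, the female control with the lowest Penk (-0.53, adjusted p = 0.0492). The stress difference in females was 0.13 (SE 0.14, adjusted p = 0.867) and the sex difference in stressed mice -0.054 (SE 0.14, adjusted p = 0.975). Without female stressed 2 the stress difference in females was 0.25 and did not pass. The difference between the male and the female stress effects, 0.38 (SE 0.20), did not pass either (adjusted p = 0.515). With the striatal score as a covariate the male stress difference of Penk was 0.036 (SE 0.075) and the sex difference in controls -0.0026 (SE 0.072). The score and stress move together in males, so a difference in composition and a change within neurons cannot be told apart there.

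Pdyn moved over a narrower range. It was at 151, 125, 121, 122 and 152 CPM in female controls, and at 127, 108, 149.9, 149.8 and 168 CPM in stressed females. Male controls had 135, 152, 106, 122 and 124 CPM, and stressed males 144, 152, 151, 142 and 125 CPM. All groups overlapped. The largest of its differences between groups, stress in males, was 0.16 log2 units (SE 0.10, adjusted p = 0.501), and with the score it was -0.12 (SE 0.082, adjusted p = 0.857).

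The ratio of Penk to Pdyn counts, chosen after the values were seen and so given without a test, was lowest in male controls. It was 4.52 ± 0.56 there, with a range of 3.8 to 5.002, and 5.69 ± 0.53 in stressed males, with a range of 5.21 to 6.30. Female controls had 5.74 ± 0.70 and stressed females 5.97 ± 0.46 (SD, n = 5). The male ranges did not overlap, but neither did those of Penk alone, so the ratio is no separate result. How many other pairs of genes have ratios without overlap was not computed. The lowest female control, at 4.64, fell among the male controls.

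Pnoc was spread most widely in the stressed groups. It was at 22.7, 27.5, 29.1, 29.0 and 25.9 CPM in female controls and at 28.6, 26.0, 26.6, 30.5 and 31.5 CPM in male controls. Stressed females had 24.8, 32.2, 27.0, 22.0 and 18.3 CPM, and stressed males 29.9, 24.2, 16.3, 31.8 and 22.9 CPM. The lowest values were those of male stressed 3 and female stressed 5, and the groups overlapped. Those are the libraries with the highest striatal scores, 0.580 and 0.603. Pnoc was -0.23 log2 units (SE 0.15) in stressed against control males (adjusted p = 0.501) and 0.15 (SE 0.12) with the score.

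**Figure D1:**
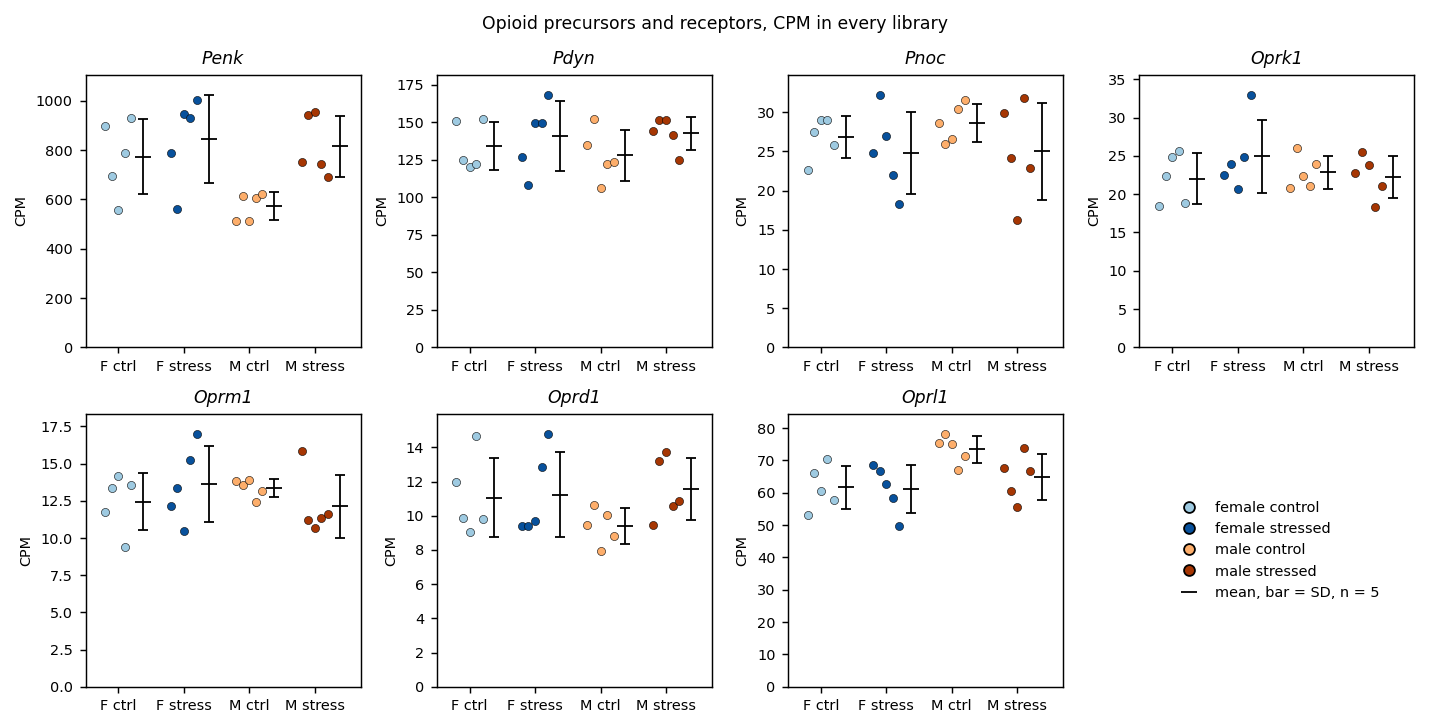
CPM of each opioid precursor and receptor (vertical axis, from 0) in all 20 libraries by group; points are libraries in replicate order and bars are mean and SD (n = 5). Penk is the gene whose stressed male libraries all lie above the male controls.

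Oprl1, the nociceptin receptor, was highest in male controls, where Penk was lowest. It was at 75.3, 78.2, 74.9, 67.1 and 71.5 CPM in male controls and at 53.3, 66.1, 60.6, 70.4 and 57.8 CPM in female controls. Every male control lay above the female control median, and 4 of 5 lay above every female control. Stressed males had 67.7, 60.5, 55.6, 73.9 and 66.9 CPM, and stressed females 68.6, 66.7, 62.6, 58.4 and 49.7 CPM. The sex difference in controls was 0.27 log2 units (SE 0.089, adjusted p = 0.151) and the male stress difference -0.17 (SE 0.086, adjusted p = 0.345). With the score these were 0.11 (SE 0.084, adjusted p = 0.615) and 0.014 (SE 0.085).

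Oprd1, the delta receptor, was, like Penk, lowest on average in male controls. Male controls had 9.48, 10.6, 7.96, 10.1 and 8.82 CPM, and stressed males 9.45, 13.2, 13.7, 10.6 and 10.8 CPM. The groups overlapped through male stressed 1 and 4, and 3 of 5 stressed males lay above every male control. Female controls had 11.95, 9.87, 9.02, 14.7 and 9.79 CPM, and stressed females 9.37, 9.40, 9.72, 12.9 and 14.8 CPM. The male stress difference was 0.31 log2 units (SE 0.14, adjusted p = 0.287), and -0.066 (SE 0.11) with the score. Female control 4, the shallowest library, had 39 Oprd1 counts, so its value carries a large counting error.

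The kappa receptor Oprk1 and the mu receptor Oprm1 had no difference between groups that passed the test. Oprk1 had 18.4, 22.4, 24.9, 25.6 and 18.9 CPM in female controls against 22.5, 23.9, 20.6, 24.9 and 33.0 CPM with stress. Males had 20.8, 26.0, 22.4, 21.1 and 24.0 CPM as controls and 22.8, 25.5, 23.8, 18.3 and 21.0 CPM with stress. Female stressed 5 was the highest library, and the groups overlapped. The difference between its male and female stress effects was -0.27 log2 units (SE 0.17, adjusted p = 0.589), and -0.36 (SE 0.18, adjusted p = 0.442) with the score. Its stress difference in females was 0.22 (SE 0.12, adjusted p = 0.691), which was 0.21 (SE 0.12) with the score and 0.095 without female stressed 5.

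Oprm1 was at 11.7, 13.3, 14.2, 9.41 and 13.5 CPM in female controls and 12.1, 13.4, 10.5, 15.2 and 17.0 in stressed females. Male controls were close together at 13.8, 13.6, 13.9, 12.4 and 13.1 CPM. Stressed males had 15.8, 11.2, 10.7, 11.3 and 11.6 CPM, so that 4 libraries lay below every male control and 1 lay above them all. The male stress difference was -0.16 log2 units (SE 0.12, adjusted p = 0.542) and the sex difference in stressed mice -0.22 (SE 0.12, adjusted p = 0.719). The lowest value, in female control 4, rests on 25 counts.

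By edgeR at an adjusted p under 0.05, 0 of the 7 genes passed in any of the 5 contrasts. The share of all genes that passed was 0% for stress in females, 0.0077% for stress in males, 0.747% for sex in controls, 0.077% for sex in stressed mice and 0% for the interaction. At an unadjusted p under 0.05, members numbered 0, 2 (Penk and Oprd1), 2 (Penk and Oprl1), 0 and 0 in the same order, against 976, 2009, 1981, 917 and 1347 of all genes. DESeq2 called Penk for stress in males. With the score as a covariate, again 0 members passed; the share of all genes was then 0.0154%, 0.0077%, 0.554%, 0.108% and 0.0077%, and Pdyn alone had an unadjusted p under 0.05, for sex in controls (0.17, SE 0.079, adjusted p = 0.379). Of all genes, 1244, 774, 1617, 1322 and 1464 were then under that unadjusted threshold in the 5 contrasts.

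**Figure D2:**
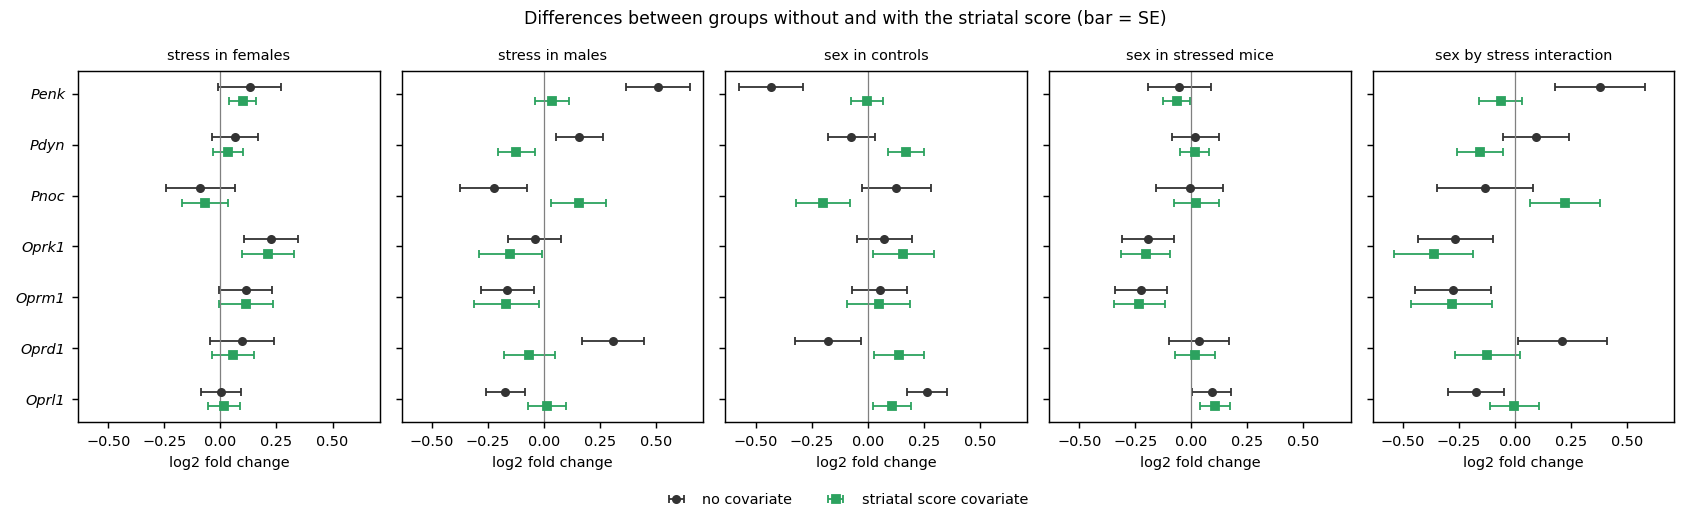
Log2 fold changes (horizontal axis, bar = SE) of the 7 genes in the 5 contrasts, without a covariate (circles) and with the striatal score (squares). For stress in males Penk is at 0.51 without and 0.036 with the score, while Oprk1 and Oprm1 stay below 0 in both.

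Across libraries, and within groups, the members split by their relation to the striatal score. The slope below is the log2 difference in expression per unit of score, fitted with a mean for each group, so that it uses only differences between libraries of the same group. Penk rose by 0.78 (SE 0.077, adjusted p = 1.03e-07), Oprd1 by 0.60 (SE 0.11, adjusted p = 3.99e-04) and Pdyn by 0.47 (SE 0.083, adjusted p = 2.32e-04). Pnoc fell by 0.66 (SE 0.12, adjusted p = 4.25e-04) and Oprl1 fell by 0.31 (SE 0.087, adjusted p = 0.0131). Oprk1 (0.17, SE 0.14, adjusted p = 0.431) and Oprm1 (0.00047, SE 0.14, adjusted p = 0.999) did not pass. Thus 3 members passed upward and 2 downward, while 9.52% of all genes passed upward and 7.1% downward. The Oprl1 slope did not pass without female stressed 5 (-0.25, adjusted p = 0.0898) or without male stressed 3 (-0.28, adjusted p = 0.0510). Penk and the delta receptor Oprd1 thus rose with the score, and Pnoc and its receptor Oprl1 fell. In the other precursor and receptor pairs only the precursor passed: Penk but not Oprm1, and Pdyn but not Oprk1. Whether the slopes of a pair differ was not tested.

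The following correlations are a description over the 20 libraries, which differed in depth and may differ in dissection. Log2 CPM correlated with the score at r = 0.95 for Penk (rho = 0.92), 0.82 for Oprd1 (rho = 0.80) and 0.75 for Pdyn (rho = 0.70). It was -0.74 for Pnoc (rho = -0.69) and -0.73 for Oprl1 (rho = -0.74), and 0.18 for Oprk1 and -0.19 for Oprm1. Without the 2 libraries farthest from the median score, female stressed 5 and male stressed 3, r was 0.95 for Penk, 0.74 for Oprd1, 0.69 for Pdyn, -0.62 for Pnoc and -0.62 for Oprl1; it turned to -0.14 for Oprk1 and was -0.37 for Oprm1. Female stressed 5 held the highest level of Penk, Pdyn, Oprk1, Oprm1 and Oprd1 among the 20 libraries and the lowest of Oprl1. Among members, Penk correlated with Pdyn at 0.77, with Oprd1 at 0.69 and with Oprl1 at -0.73, and Pnoc with Oprl1 at 0.69.

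**Figure D3:**
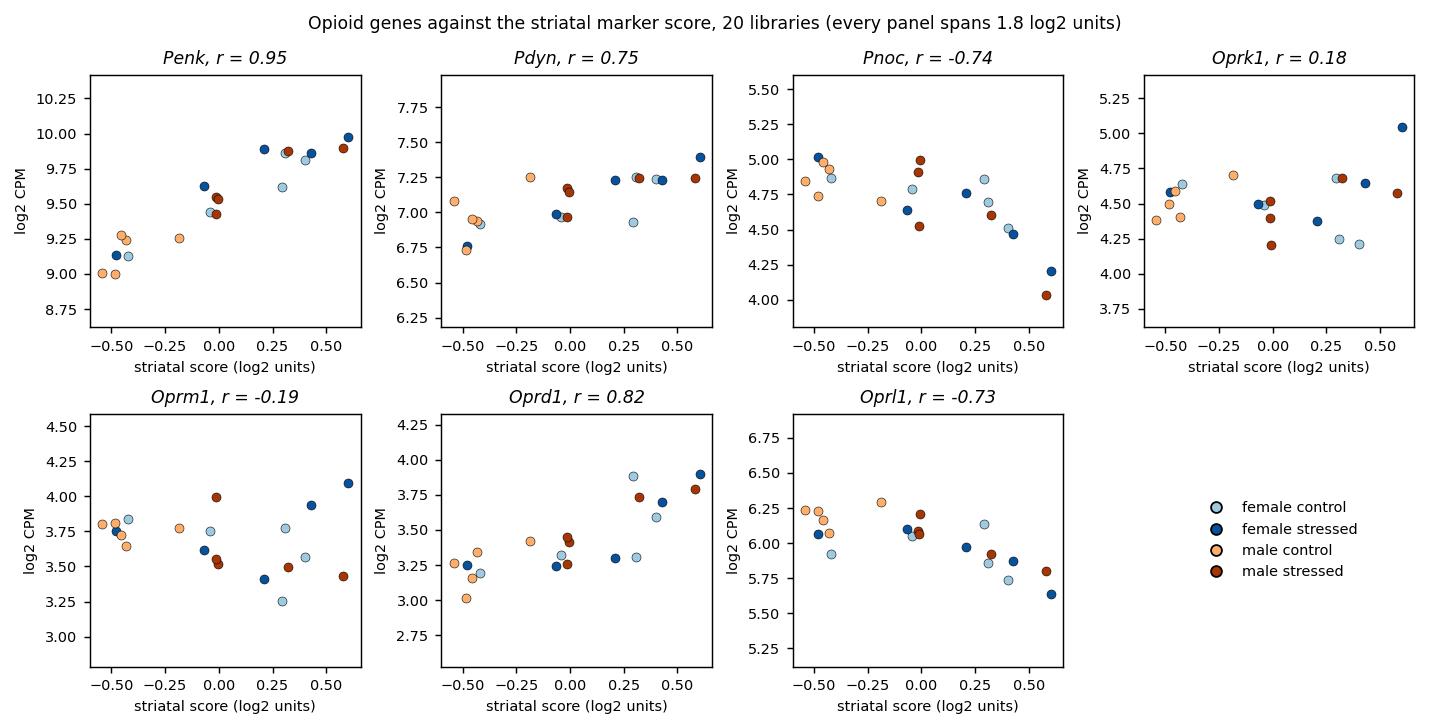
Log2 CPM of each gene (vertical axis, every panel spanning the same number of log2 units) against the striatal score (horizontal axis, log2 units) in 20 libraries coloured by group. Penk, Pdyn and Oprd1 climb with the score, Pnoc and Oprl1 descend, and Oprk1 and Oprm1 show no steady course.

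The genes most like each member, by Pearson r of log2 CPM over the 20 libraries, differed between members. They were Necab2, Ddn and Fbxl16 for Penk (r = 0.98 for each), Sv2b (0.89), Ptk2b (0.88) and Rgs14 (0.88) for Pdyn, and Gnas (0.94), Vat1 (0.93) and Basp1 (0.93) for Pnoc. For the receptors they were Ppp1r16b (0.89), Sh3pxd2a (0.88) and Garem1 (0.88) for Oprd1, Nap1l4 (0.92), Wdr6 (0.89) and Gprasp2 (0.87) for Oprl1, Plxna4 (0.88), Zfp334 (0.81) and Gfpt2 (0.75) for Oprm1, and Stard5 (0.77), Heatr5b (0.74) and Cacna1c (0.71) for Oprk1. The partners of Penk themselves followed the striatal score at r = 0.95 to 0.96, whereas those of Oprk1 did so at 0.33 to 0.40.

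Of 53 listed names of genes that make, degrade or transmit opioid peptides, 48 were in the table. The names include Grk2 and Grk3 also under their older symbols, Adrbk1 and Adrbk2. Pomc, listed as a related precursor, was not in the table. For stress in either sex, for sex in stressed mice and for the interaction, 0 of the 48 passed. The smallest p-values among them were those of Rgs4 (-0.36, adjusted p = 0.597) and Npepps (-0.074, adjusted p = 0.737) for stress in females, and of the receptor-desensitizing arrestin Arrb2 (-0.31, adjusted p = 0.0806) and Pcsk2 (0.41, adjusted p = 0.0871) for stress in males. For sex in stressed mice they were Arrb2 (-0.19) and Cacna1a (-0.21), both at an adjusted p of 0.628, and for the interaction Rgs4 (0.73, adjusted p = 0.261) and Arrb2 (-0.35, adjusted p = 0.266). Arrb2 and Pcsk2 passed for stress in males in DESeq2 and when only the male groups were fitted. Each also passed in 1 of 10 fits that left out 1 library, where adjusted p reached 0.261 and 0.277. Neither passed once the striatal score was in the fit. The male stress difference was then -0.26 for Arrb2 (adjusted p = 0.816) and 0.15 for Pcsk2 (adjusted p = 0.828).

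For sex in controls 2 of the 48 passed, both lower in males, where 0.747% of all genes passed in either direction. All male controls lay below all female controls for 2.02% of all genes. Rgs4, which shortens inhibitory G protein signals, was at 386, 273, 292, 465 and 424 CPM in female controls and at 222, 266, 223, 250.2 and 243 CPM in male controls, without overlap (-0.60, SE 0.13, adjusted p = 0.0337). Pcsk2, the proprotein convertase that cuts all 3 precursors, was at 234, 183, 190.1, 226 and 238 CPM in female controls and at 142, 171, 157, 166.5 and 164 CPM in male controls, also without overlap (-0.42, SE 0.095, adjusted p = 0.0400). Neither passed with the striatal score (adjusted p = 0.256 and 0.276). The call of Rgs4 was lost in 7 of the 10 fits that each left out 1 control library (female 1, 4 or 5, male 1, 2, 3 or 4) and that of Pcsk2 in 8 (the same and male 5), with adjusted p up to 0.126 and 0.136, both without female control 5.

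On the striatal score itself, 24 of the 48 had positive and 24 had negative slopes; 10 passed upward and 7 downward, where 9.52% and 7.1% of all genes did. By the naming rule, Kcnj3 and Rgs14 are given; the other 15 that passed were added after their values were seen. Of the 11 effector genes, 5 had positive and 6 had negative slopes, and 1 and 6 of these passed. Among them are 4 subunits of inwardly rectifying potassium channels, a grouping made after the values were seen: Kcnj3 fell by 0.54 (SE 0.056, adjusted p = 1.99e-07), Kcnj5 by 0.99, Kcnj6 by 0.69 and Kcnj9 by 0.24 (adjusted p = 0.0426, a call lost in 12 of 20 fits that left out 1 library). Adenylyl cyclases differed among themselves, with Adcy8 (-0.68) and Adcy6 (-0.37) lower and Adcy9 (0.42) higher.

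The convertases parted as well: Pcsk2 rose by 0.43 (SE 0.073, adjusted p = 1.66e-04) while Pcsk1 fell by 0.81 (SE 0.13, adjusted p = 5.68e-05). Mme, which encodes neprilysin, an enkephalin-degrading peptidase, rose by 0.65 (SE 0.14, adjusted p = 0.00180). Among genes of G proteins and receptor desensitization, Rgs14 (0.68, SE 0.074, adjusted p = 4.03e-07) and Rgs4 (0.63) rose, with smaller rises of Gnao1 (0.17) and Arrb1 (0.17). Rnpep (0.19) and Ogfr (0.23) also passed. Rnpep and Gnao1 each failed to pass in 9 of 20 fits that left out 1 library, Ogfr in 5, Arrb1 in 3 and Adcy6 in 1.

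Fosb, a transcription factor of the Fos family, rose by 1.01 per unit of score (SE 0.15, adjusted p = 1.90e-05) and was the pathway gene that passed between groups only once the score was in the fit. It was at 20.5, 22.6, 26.5, 23.1 and 22.4 CPM in male controls and 16.8, 19.2, 24.6, 19.4 and 14.7 CPM in stressed males. The groups overlapped. Without the score the male stress difference was -0.26 (SE 0.20, adjusted p = 0.585) and with it -0.89 (SE 0.14, adjusted p = 0.0379). The sex difference in controls was 0.16 without (adjusted p = 0.781) and 0.72 with the score (SE 0.14, adjusted p = 0.0183). With the score, 0.0077% of all genes passed for stress in males and 0.554% for sex in controls. Neither Fosb call was repeated in the alternative fits or with a library left out. Both contrasts use the male controls, whose scores do not overlap those of stressed males, so in males the fit with the score compares groups at scores they do not share.

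**Figure D4:**
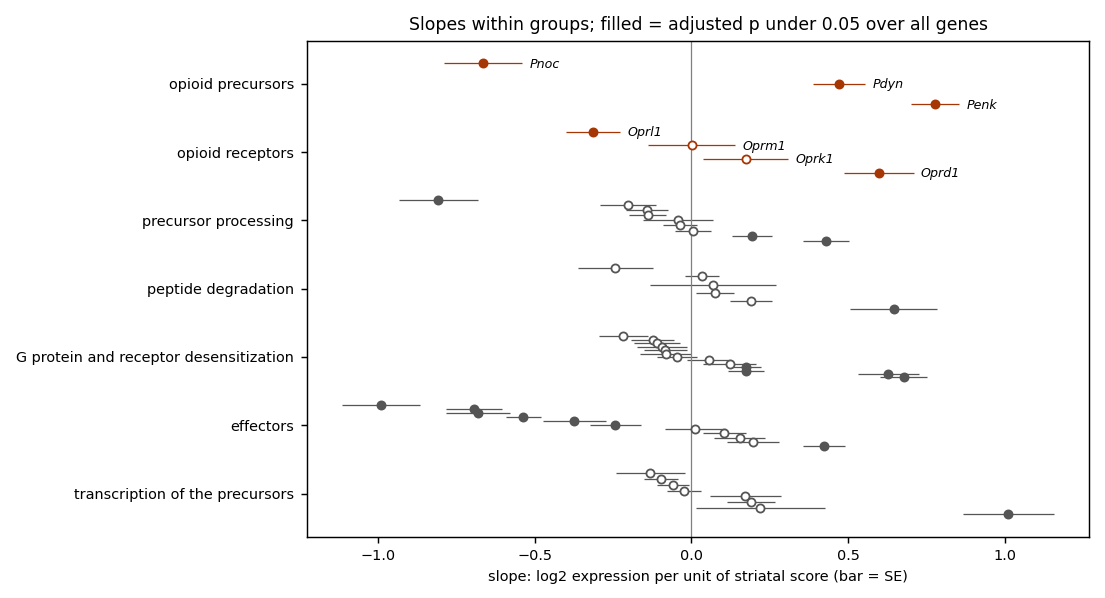
Slopes on the striatal score (horizontal axis, log2 expression per unit of score, bar = SE) for the opioid genes and the pathway lists by role; filled points passed at an adjusted p under 0.05 over all genes. Penk, Oprd1 and Pdyn lie to the right and Pnoc and Oprl1 to the left, while Oprk1 and Oprm1 did not pass. The effectors hold 6 of the 7 pathway genes that passed downward.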

How the data were processed

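The authors' deposited table holds whole-number read counts per gene symbol, without normalization; per the submitters' processing notes STAR, featureCounts and the mm10 build were used, and versions, annotation and strand setting are not given in the sources used here. Per the labels' protocols, tissue of 3 mice was pooled and a stranded mRNA kit was used. No batch is given in the labels.

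The counts were analysed in R 4.3.3 with edgeR 4.0.16: TMM factors, a mean for each of the 4 groups, the quasi-likelihood test, two-sided p-values adjusted by Benjamini-Hochberg over 12988 genes, and a call at an adjusted p under 0.05. filterByExpr kept all genes; the lowest row total was 1002. Sex differences are male minus female. CPM used TMM-scaled totals, and log2 CPM a prior count of 2. A second fit added the striatal score. Alternatives were DESeq2 1.42.0, its size factors, no filter, a replicate block, other scores, only the groups compared, and leaving out each library. The scripts were tested on simulated data. Lengths, coordinates and coding sequence came from GENCODE M21 (GRCm38).

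The members and lists were chosen with earlier results of these data known. Named were all members, pathway genes called in a contrast, the 2 pathway genes with the smallest p per contrast and for the slope, and 3 genes most like each member. The other 15 pathway genes called on the slope, which is a covariate's coefficient and no contrast between groups, were added after their values were seen.

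Replicates were compared in 40 pairs within groups: 0 were identical, and the chi-square per degree of freedom was 1.88 to 39.4. Each p-value measures the spread between pools.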

Additional observations from a re-analysis of the deposited data

Results flagged for a closer look

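Oprm1 was at 15.8 CPM in male stressed 1, while the other stressed males lay between 10.7 and 11.6 CPM; the gap was 0.820 of the group's range. It was the 1 group with a library far from the rest among 28 groups of 5 libraries looked at, and chance alone gives about 1 in 20. Without it the male stress difference of Oprm1 was -0.25.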

How the results depend on the processing

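In the 5 contrasts, 639 of 692 alternative values for members kept direction and side of the threshold, 50 reversed and 3 newly passed. For the slope 167 of 182 kept both, 13 reversed and 2 no longer passed. These counts include the fit with no filter, which repeats the main fit because the filter removed no gene. Its values were bound to be kept and say nothing on stability. The cause of each change was not tested. The number of members passing for stress in males went from 0 to 1 (Penk) with DESeq2 and with only the groups compared. With the striatal score as a covariate, signs turned for stress in males in Pdyn (-0.12), Pnoc (0.15), Oprd1 (-0.066) and Oprl1 (0.014), for sex in controls in Pdyn (0.17), Pnoc (-0.20) and Oprd1 (0.14), for sex in stressed mice in Pnoc (0.023), and for the interaction in Penk (-0.063), Pdyn (-0.16), Pnoc (0.22) and Oprd1 (-0.12). With a score of 5 Drd2-type genes as the covariate they turned for stress in males in Pdyn (-0.11), Pnoc (0.12) and Oprd1 (-0.030), for sex in controls in Penk (0.0079), Pdyn (0.18), Pnoc (-0.20) and Oprd1 (0.13), and for the interaction in Penk (-0.024), Pdyn (-0.14), Pnoc (0.19) and Oprd1 (-0.089). With the oligodendrocyte score Pnoc for stress in females was 0.053. DESeq2 gave 0.00023 for Pnoc between stressed sexes. The Oprm1 slope was -0.00575 with DESeq2 and -0.043 on the Drd2-type list. The score itself differed by -0.022 between stressed sexes on the Drd2-type list and by -0.026 for stress in females on the Drd1-type list.

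Replicate numbers gave no sign of pairing the samples, although these values cannot show that no pairing existed. Over 30 same-numbered pairs of libraries from different groups the median correlation of deviations was -0.012 (-0.47 to 0.24, with 5 above 0.1). Over 120 other pairs it was 0.014 (-0.54 to 0.66, with 41 above 0.1). With the replicate block 0 members passed in each contrast and 5 on the slope; Oprl1 for stress in females was -0.00149 and the Oprm1 slope -0.035. The block also ended the calls of Rgs4 (adjusted p = 0.0569) and Pcsk2 (0.0885) for sex in controls and of Rnpep, Gnao1 and Kcnj9 on the slope (0.0528, 0.108 and 0.0656).

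Leaving out 1 library at a time gave, for stress in females, -0.011 to 0.15 for Pdyn, -0.22 to 0.014 for Pnoc, -0.035 to 0.17 for Oprd1 and -0.051 to 0.073 for Oprl1, and for stress in males -0.091 to 0.029 for Oprk1 and 0.45 to 0.56 for Penk (adjusted p 0.0541 to 0.286). Between stressed sexes it gave -0.17 to 0.016 for Penk, -0.066 to 0.094 for Pdyn, -0.14 to 0.13 for Pnoc and -0.045 to 0.17 for Oprd1, and slopes of -0.0084 to 0.31 for Oprk1 and -0.17 to 0.070 for Oprm1. Members passing were 0 to 1 for sex in controls and 4 to 5 on the slope. The score differed by -0.10 to 0.19 for stress in females, -0.12 to 0.15 between stressed sexes, 0.49 to 0.65 for stress in males and -0.66 to -0.45 for sex in controls, where 7 of 10 exceeded an adjusted p of 0.05. The shallowest library holds 25 counts of Oprm1 and 39 of Oprd1, which limits both.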
